A study of Homo sapiens with 18 samples.

Results

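Acini of MCF-10A.B2 cells that lacked JNK were compared with wild-type acini after 14 days of the B/B homodimerizer together with TGF-β1. MCF-10A.B2 is a human mammary epithelial line, not derived from a tumour, that carries a chimeric HER2 receptor, and the B/B homodimerizer is a bivalent small molecule that pairs the chimeric receptors and so switches on their kinase. The comparison holds 6 of the 18 libraries of the series, chosen by title, 3 from JNK-knockout (JNKKO) acini and 3 from wild-type (WT) acini. All 6 came from cells of the same line grown on growth factor reduced Matrigel for 21 days, and in all of them EGF was replaced at day 7 by the homodimerizer with TGF-β1. The other libraries, 3 in each group, are JNKKO and WT acini given the homodimerizer alone (dimerizer) and JNKKO and WT acini given ethanol (control). The labels leave unsaid which JNK genes were edited, whether the knockout line is a single clone, and whether replicates were cultured separately. The p-values therefore measure the spread between these libraries only, which may be technical. The library titled WT replicate 3 carries a genotype tag that reads JNK knockout, and the counts and named genes were repeated without it.

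JNK kinases sit at the end of a stress-activated cascade of MAP kinases and phosphorylate JUN and other AP-1 transcription factors. TGF-β1 binds a receptor pair that phosphorylates SMAD2 and SMAD3. In mammary epithelial cells it is known for slowing proliferation, for raising matrix genes and for driving the epithelial-to-mesenchymal transition (EMT), in which E-cadherin, polarity proteins and desmosomes give way to fibronectin, N-cadherin and vimentin. HER2 signals through the ERK cascade, whose output is read in its own feedback genes, the dual-specificity phosphatases (DUSP), Sprouty (SPRY) and SPRED genes.

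Library totals ran from 28072317 to 30211568 expected counts in JNKKO and from 29943268 to 32774819 in WT. Correlations between replicates were at least 0.9905 on log2 CPM over the genes tested. WT replicate 1 stood apart from the other WT libraries, with a chi-square per gene of 8.91 and 11.4 against replicates 2 and 3, while those differed by 3.25 and the JNKKO pairs by 2.75 to 3.83. Mitochondrially encoded transcripts took 5.24%, 5.56% and 5.33% of the counts in JNKKO libraries, against 9.88%, 9.08% and 8.61% in WT libraries. Every other library of the series lay between 8.73% and 15.3%. The epithelial markers KRT5 and TP63 were present in all 6 libraries, while EPCAM was low, at 2.31 to 2.73 CPM in JNKKO and 2.19 to 2.63 CPM in WT. Replicates are named by number, levels are CPM (counts scaled to a fixed library total) as mean ± SD of n = 3 libraries, and differences are log2 values of JNKKO minus WT ± the standard error of the model.

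The JNK genes themselves showed small differences. MAPK9 (JNK2; chromosome 5, 180233143 to 180292099, minus strand, hg38) fell to 52.4 ± 1.44 CPM in JNKKO, against 66.2 ± 1.93 in WT, a difference of -0.34 ± 0.04. MAPK8 (JNK1; chromosome 10, 48306639 to 48439360) was at 26.6 ± 0.968 CPM in JNKKO and 33.2 ± 1.76 in WT, a difference of -0.32 ± 0.06 that also passed the test. MAPK10 (JNK3) was at 3.83 ± 0.192 CPM in JNKKO and 4.08 ± 0.174 in WT, and its difference of -0.09 ± 0.12 did not pass (adjusted p by edgeR with Benjamini-Hochberg adjustment = 0.555). A gene with a short edit can still be transcribed, and gene counts do not show an edit. Of the 22 JNK pathway components tested, 6 were higher and 11 lower in JNKKO, with a median of -0.11. MAP3K5 (ASK1), a stress-activated kinase upstream of JNK, fell to 19.9 ± 0.789 CPM in JNKKO, against 40.8 ± 2.65 in WT. MAP3K20 (ZAK), another kinase of that tier, rose by 0.63 ± 0.05, and MAP3K1 and the scaffold SH3RF1 (POSH) fell by 0.56 and 0.55. Without JNKKO replicate 1 or without WT replicate 1 the number of higher components was 3.

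Of 16911 genes tested, 8952 passed the threshold of 0.05 (52.9%), 4485 of them higher in JNKKO (26.5%) and 4467 lower (26.4%). At least 2-fold, 923 were higher (5.46%) and 685 lower (4.05%), together 9.51%. The median over all genes tested was -0.004. With log2(TPM + 1) in place of the counts, the split was 3486 higher and 5004 lower. Without WT replicate 3 it was 4506 higher and 3928 lower, and all 211 of the named genes that passed kept their direction and their call. The 43 gene lists used below held 929 entries, of which 830 (818 distinct genes) passed the filter on low counts. A list's count is to be read against the shares of all genes tested. The libraries of the 2 groups did not overlap in 59.4% of the genes tested, and a gene named below as not overlapping is to be read against that share. In whole acini, more cells of a kind and more RNA per cell cannot be told apart in any of these differences.

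**Figure D1:**
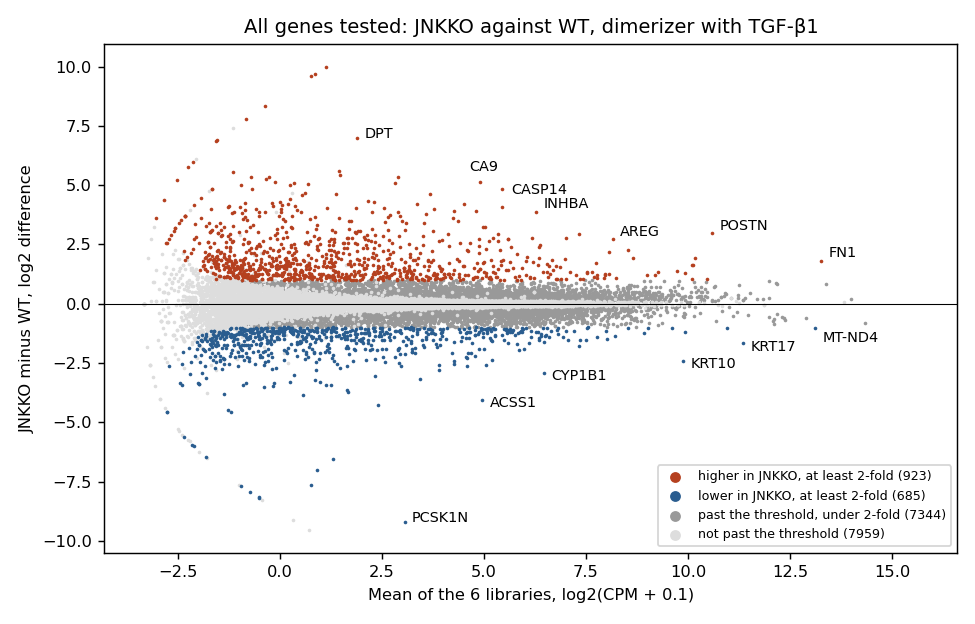
Log2 difference of JNKKO minus WT in dimerizer with TGF-β1 (vertical) against the mean of the 6 libraries on a log2(CPM + 0.1) scale (horizontal) for the 16911 genes tested. Red and blue points passed the test and differed at least 2-fold, 923 higher and 685 lower, and named genes such as FN1 and POSTN show that differences of that size reached the most abundant transcripts.

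Among genes that reached 5 CPM in the higher group without overlap, those with the largest rises were mostly near zero in WT. DPT (dermatopontin, a small matrix protein; chromosome 1, 168695459 to 168729264, minus strand) was at 7.04, 7.88 and 6.69 CPM in JNKKO, against 0.0907, 0.0663 and 0 in WT, a difference of 7.00 ± 0.39. CA9, the membrane carbonic anhydrase known as a hypoxia marker, was at 60.6, 59.7 and 52.9 CPM in JNKKO, against 0.121, 1.33 and 3.52 in WT. CASP14, a caspase of cornifying keratinocytes, was at 91.6, 86.7 and 73.2 CPM in JNKKO and at 0.272, 4.41 and 4.13 in WT. In these 3 genes no WT library came near a JNKKO library, and the WT level of DPT rested on 5 counts in all. The other leading rises were DNAH11 (an axonemal dynein, 5.58), EEF1A2 (the tissue-restricted elongation factor, 5.45), PADI4 (a protein-arginine deiminase, 5.36), LPAR3 (a lysophosphatidic acid receptor, 5.11), TMEM176B (4.63), CAMK2B (a calmodulin-dependent kinase, 4.33), ROBO4 (4.28), ENO2 (4.22) and CDH4 (R-cadherin, 4.20). In PADI4, WT replicate 3 held 0.864 CPM, against 0.0302 and 0.133 in the other WT libraries. Leaving that library out raised the PADI4 difference by 2.09, to 7.44.

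By the same rule the largest fall was in PCSK1N, a neuroendocrine inhibitor of prohormone convertase 1 (chromosome X, 48831094 to 48835633, minus strand). It was at 0.0701, 0 and 0 CPM in JNKKO, against 15.5 to 17.7 in WT. That is 2 counts in all JNKKO libraries against 1569 in WT, a ratio of WT over JNKKO of 707 with a 95% counting interval of 195 to 5841, which covers counting error only. WT replicate 3, the library with the contradicting tag, sat with the other WT libraries in this gene. The rule that named the gene asked for no overlap with that library counted as WT, so this cannot check the tag. PCSK1N was also lower in JNKKO under dimerizer, at -8.28, and in control, at -9.42. NLGN4X, a synaptic adhesion protein, fell by 4.27, the acetyl-CoA synthetase ACSS1 by 4.04, the decoy TRAIL receptor TNFRSF10C by 3.62 and the microtubule protein MAP2 by 3.17. The other leading falls were EPHB6 (-3.05), CYP1B1 (a cytochrome P450, -2.92), ABI3BP (-2.78), PKDCC (-2.65), TGFBR3 (-2.62) and PIK3C2B (-2.61). CYP1B1 was the most abundant of them, at 17.9, 21.8 and 22.4 CPM in JNKKO, against 185, 141 and 144 in WT.

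Mesenchymal genes were mostly higher in JNKKO acini and epithelial adhesion and polarity genes mostly lower. Of 18 EMT transcription factors and mesenchymal markers tested, 10 were higher and 4 lower, with a median of 0.41. FN1 (fibronectin; chromosome 2, 215360440 to 215436172, minus strand) was at 15719, 14489 and 15627 CPM in JNKKO and at 3670, 4894 and 4471 in WT. These levels do not overlap, and the difference was 1.81 ± 0.31 (adjusted p by edgeR with Benjamini-Hochberg adjustment = 0.000296). ZEB1, a repressor of E-cadherin, rose to 22.3 ± 1.07 CPM in JNKKO, against 7.96 ± 0.970 in WT. CDH2 (N-cadherin) was at 47.0 ± 2.04 CPM in JNKKO and 22.5 ± 2.26 in WT, VIM (vimentin) at 2028 ± 34.5 and 1221 ± 64.5, and TAGLN, an actin-binding protein of contractile cells, at 24.3 ± 1.37 and 10.3 ± 1.36. The 4 members that fell were FOXC2, S100A4, CALD1 and MSN, and SNAI1, TWIST1 and ZEB2 did not pass.

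CDH1 (E-cadherin; chromosome 16, 68737225 to 68835548) was at 39.5, 39.2 and 40.9 CPM in JNKKO and at 93.4, 76.0 and 75.8 in WT, a fall of 1.04. Among 19 adherens and tight junction genes tested, 11 were lower and 6 higher, and the 6 included CLDN4 (1.04) and CLDN7 (0.89), while CLDN1 fell by 1.52. Of 16 apical-basal polarity genes tested, none was higher and 11 were lower, with a median of -0.39. They included CRB3 (-1.35), the small Crumbs protein of the apical membrane, LLGL2 (-1.19), a lethal giant larvae homologue of the lateral membrane, DLG5 (-0.75) and PATJ (-0.48). None of the 12 desmosome genes tested was higher and 8 were lower, with a median of -0.31. DSP (desmoplakin), which ties desmosomes to keratin filaments, fell to 1297, 1288 and 1347 CPM in JNKKO, against 2899, 2573 and 2470 in WT, and the desmosomal cadherins DSG3 and DSC3 fell by 0.93 and 0.71. Among 15 factors of epithelial identity, 8 were lower and 4 higher. ESRP2, a splicing regulator of epithelial cells, fell by 1.03, KLF4 by 1.01, the protease inhibitor SPINT2 by 0.77 and RBM47 by 0.71.

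**Figure D2:**
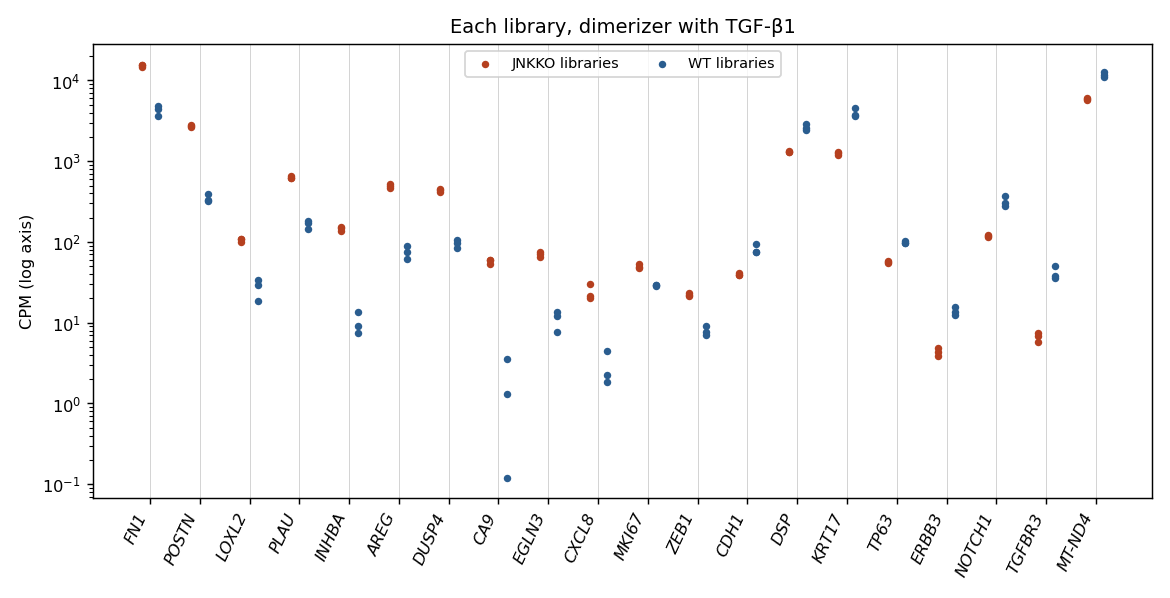
CPM on a log axis of 20 genes in each library of dimerizer with TGF-β1, JNKKO in red to the left of WT in blue for each gene. The 3 JNKKO libraries lie apart from the 3 WT libraries in every gene shown, above them from FN1 to ZEB1 and below them from CDH1 to MT-ND4, and CA9 shows the widest spread among WT libraries.

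Matrix genes split by kind. Matricellular proteins and matrix-modifying enzymes were mostly higher. In a list of 12 fibrillar, beaded-filament and other collagens, more genes were lower than higher, but not at 2-fold. Of 20 matricellular and glycoprotein genes tested, 12 were higher and 4 lower, with a median of 1.03. POSTN (periostin; chromosome 13, 37562583 to 37598844, minus strand) was at 2706, 2828 and 2684 CPM in JNKKO and at 330, 397 and 325 in WT, a difference of 2.97 ± 0.20. SPARC (osteonectin) rose to 49.3 ± 1.02 CPM in JNKKO, against 9.07 ± 1.39 in WT, and FBN1 (fibrillin 1) to 31.8 ± 2.86, against 8.51 ± 0.650. The 4 that fell were FBLN1, TNC, DCN and AMTN. Without JNKKO replicate 2 the falls were 2. Of 18 genes for collagen maturation and crosslinking, 14 were higher and 1 lower, with a median of 0.79. LOXL2, a lysyl oxidase that crosslinks collagen, was at 106 ± 4.76 CPM in JNKKO and 27.1 ± 7.69 in WT, the procollagen chaperone FKBP10 at 130 ± 2.31 and 33.8 ± 3.78, and the procollagen peptidase ADAMTS14 at 8.10 ± 1.05 and 1.59 ± 0.519. The exception, P4HA3, a prolyl hydroxylase subunit, was at 3.71, 3.99 and 3.27 CPM in JNKKO and at 12.1, 15.6 and 17.3 in WT.

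Of 12 collagens tested, 4 were higher and 7 lower, but at least 2-fold 3 were higher and 0 lower. The summed level of the list was 2640 to 2728 CPM in JNKKO and 2682 to 2936 CPM in WT. COL6A1 rose to 223 ± 7.85 CPM in JNKKO, against 33.1 ± 3.86 in WT, and COL6A3 rose by 1.61, while COL8A1 and COL12A1 fell by 0.84 and 0.83. LAMB3 and LAMA3, chains of the laminin of epithelial anchoring, rose by 0.97 and 0.86. In the same list of 9 laminin-332 and hemidesmosome genes, DST, COL17A1 and ITGA6 fell, so that 4 were higher and 3 lower. Among 13 other laminin and basement membrane genes, 2 were higher and 7 lower, with HSPG2 (perlecan) at -1.02, LAMA5 at -0.74 and LAMB2 at -0.51, while COL4A1 rose by 0.30. Of 14 matrix-binding integrins, 8 were higher, among them the fibronectin receptor chains ITGA5 (0.97) and ITGB1 (0.71), and 2 were lower, among them ITGB8 (-0.84).

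Secreted proteases and their regulators were mostly higher. Of 11 plasminogen activation genes tested, 9 were higher and 1 lower, with a median of 0.76. PLAU (urokinase) was at 649, 619 and 623 CPM in JNKKO and at 145, 173 and 183 in WT, with no overlap and a difference of 1.92 ± 0.08, and its receptor PLAUR rose by 1.06. Of 19 matrix metalloproteinases and inhibitors, 12 were higher and 6 lower. MMP9 rose by 3.07, MMP11 by 1.75, MMP17 by 1.62 and MMP19 by 1.24, all from low WT levels.

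Markers of stromal cells, which the mesenchymal and matrix lists partly share, did not rise together. Only 7 of 16 fibroblast markers were tested, 2 of them higher (DPT and PDGFRB) and 4 lower (FBLN1, FAP, S100A4 and DCN), and 5 of these 7 are also in other lists. The counts became equal, at 3 each, without JNKKO replicate 2 or without WT replicate 1, and the FAP call ended on log2(TPM + 0.1), at -0.42. Their summed level was 419 to 498 CPM in JNKKO and 546 to 588 CPM in WT. Of the 16, 9 stayed below 1 CPM in all 6 libraries and MEOX2 was at 0. Of 17 immune and endothelial markers, 9 were tested, 3 of them higher and 3 lower, with a summed level of 62.7 to 68.3 CPM in JNKKO and 41.8 to 45.5 CPM in WT. In JNKKO most of that sum was CD68, a lysosomal protein, which was at 43.4 ± 3.10 CPM in JNKKO and 13.4 ± 3.06 in WT. TEK (TIE2) was at 5.92 ± 0.314 CPM in JNKKO and 0.527 ± 0.222 in WT, KDR fell to 12.9 CPM in JNKKO, against 25.7 in WT, and CD3E, NKG7 and TIE1 were at 0.

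ERK feedback genes were mostly higher in JNKKO, and the receptors EGFR, ERBB2 and ERBB3 were lower. Of 26 ERK feedback and ERK-induced genes tested, 17 were higher and 3 lower, with a median of 0.36. The difference was also present without TGF-β1. With dimerizer alone 22 were higher and 3 lower, with a median of 0.58. In control 20 were higher and 3 lower, with a median of 0.84. DUSP4, a phosphatase that removes phosphate from ERK, was at 443, 458 and 417 CPM in JNKKO and at 83.7, 96.7 and 107 in WT. DUSP5 rose by 1.82, SPRED3 by 1.87 and SPRY4 by 1.57, and in DUSP4 and these 3 genes the groups did not overlap. Of 16 ERBB receptors, ligands and regulators tested, 4 were higher and 8 lower. AREG (amphiregulin), a ligand of EGFR, was at 495, 523 and 469 CPM in JNKKO and at 62.3, 75.6 and 89.0 in WT, a difference of 2.71 ± 0.11, and TGFA rose by 0.89. EGFR was at 679 ± 23.8 CPM in JNKKO and 957 ± 62.2 in WT, ERBB2 at 51.1 ± 1.32 and 86.8 ± 4.79, and ERBB3 at 4.35 ± 0.440 and 13.8 ± 1.69, and the ligand EPGN fell by 0.77. Counts assigned to ERBB2 and NGFR can include the chimeric receptor. NGFR was at 325 ± 29.6 CPM in JNKKO and 336 ± 40.3 in WT, with no difference past the threshold.

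Genes of the TGF-β pathway moved both ways. INHBA, the subunit of activin A (chromosome 7, 41667168 to 41705834, minus strand), was at 150, 152 and 136 CPM in JNKKO and at 7.40, 9.08 and 13.5 in WT, a difference of 3.87 ± 0.17. TGFBR3 (betaglycan), a co-receptor that presents TGF-β to its receptors, fell to 6.83, 7.45 and 5.79 CPM in JNKKO, against 50.5, 38.1 and 35.3 in WT. TGFB1 rose by 0.53 and the latency protein LTBP1 by 0.72, TGFBR1 fell by 0.36, and TGFBR2 rose by 0.11, a call that ended without WT replicate 1. The 20 ligands, receptors and latency genes tested gave 6 higher and 7 lower, and the order of these counts changed under 11 of 14 alternatives. Of 20 SMAD and feedback genes, 7 were higher and 5 lower, with an order that changed under 3 alternatives. SMAD3 fell to 31.0 ± 1.76 CPM in JNKKO, against 54.3 ± 0.556 in WT, and SMAD6 fell by 0.76. PMEPA1, a feedback inhibitor, rose by 0.36 on counts, but on log2(TPM + 1) it was at -0.10. BAMBI rose by 0.34, a call that ended without WT replicate 2. Of 14 BMP targets and ligands, 3 were higher and 7 lower, with ATOH8 (-1.85), ID2 (-0.76), NOG (-0.59) and the receptor BMPR1B (-0.57) among the falls.

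AP-1 genes moved both ways. Of 18 tested, 4 were higher and 10 lower, with a median of -0.31. JUN, the best known substrate of JNK, was at 396 ± 19.3 CPM in JNKKO and 324 ± 24.9 in WT, a rise of 0.29, and FOSL1 rose by 0.80. FOSL2 fell by 0.97 and JUND by 0.52. FOS was at 62.8, 85.6 and 62.6 CPM in JNKKO and at 56.8, 51.1 and 60.6 in WT, and its difference of 0.32 ± 0.17 did not pass (adjusted p by edgeR with Benjamini-Hochberg adjustment = 0.122). In the fit without the filter on low counts its difference of 0.33 did pass, so the FOS call depends on the fit. Of 23 YAP and TAZ pathway genes and targets, 6 were higher, among them NT5E (CD73, 2.28) and CTGF (1.21), and 15 were lower, among them WISP2 (-1.89) and CRIM1 (-1.14).

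Genes of mitosis were higher in JNKKO without exception. All 30 tested were higher and none lower, with a median of 0.89 and single differences from 0.43 to 1.35, and in all 30 the JNKKO libraries lay above the WT libraries. Under the 14 alternatives, 29 or 30 passed. Over all genes tested, the libraries of the groups did not overlap in 59.4%. Their summed level was 601 to 605 CPM in JNKKO and 326 to 334 CPM in WT. TTK, the kinase of the spindle checkpoint, was at 7.74, 7.14 and 8.20 CPM in JNKKO and at 3.05, 3.05 and 2.93 in WT, a difference of 1.35 ± 0.15. CDK1, the kinase that starts mitosis, was at 22.4 ± 1.79 CPM in JNKKO and 10.2 ± 0.897 in WT, and NUF2 of the kinetochore and BIRC5 (survivin) rose by 1.23 and 1.12. MKI67 (chromosome 10, 128096659 to 128126385, minus strand), the gene of the Ki-67 proliferation marker, was at 53.4, 48.1 and 48.9 CPM in JNKKO and at 29.5, 28.7 and 29.5 in WT. Of 28 DNA replication genes, 21 were higher and none lower, with a median of 0.56, led by GINS2 (1.01), CDT1 (0.98), GINS1 (0.95) and CCNE1 (0.94). Of 20 CDK inhibitors and p53 targets, 2 were higher and 9 lower, with PLK2 (-0.92), BTG2 (-0.77), GADD45B (-0.69) and TP53INP1 (-0.69) leading the falls.

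**Figure D3:**
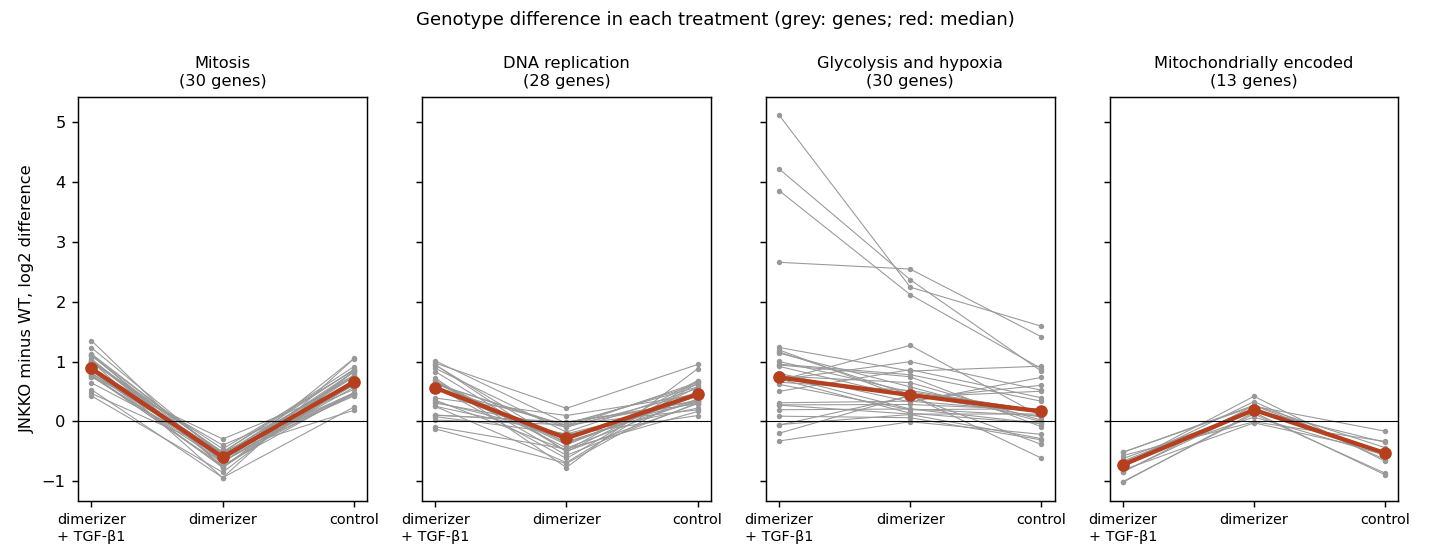
Log2 difference of JNKKO minus WT in dimerizer with TGF-β1, in dimerizer and in control for 4 gene lists, with grey lines for genes and a red line for the median. The mitosis genes lie above 0 with TGF-β1, below 0 with dimerizer and above 0 in control, and the glycolysis and hypoxia genes keep medians above 0 in all 3 treatments.

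The sign of the mitosis difference was not the same in all treatments. Over all genes tested, JNKKO differed from WT in 40.1% with dimerizer (21.6% higher and 18.5% lower) and in 49.3% in control (25.8% higher and 23.5% lower), and the difference itself changed in 32.9% between dimerizer with TGF-β1 and dimerizer (14.1% towards JNKKO). With dimerizer alone, all 30 mitosis genes were lower in JNKKO, with a median of -0.60 and a summed level of 437 to 521 CPM in JNKKO against 710 to 879 CPM in WT. In control, 28 of them were higher and none lower, with a median of 0.66. The difference between the genotype changes with and without TGF-β1 passed its own test in 30 of 30 genes, always towards JNKKO with TGF-β1, and in 25 of 28 DNA replication genes. Against control, 2 of the 30 mitosis genes passed. MKI67 was at 39.9 CPM in JNKKO and 67.3 in WT with dimerizer, and at 93.5 in JNKKO and 59.9 in WT in control, so both genotypes varied across treatments.

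Genes of glycolysis and the hypoxia response were mostly higher in JNKKO. Hypoxia-inducible factors bind a short DNA core, ACGTG, in the control regions of such genes when oxygen is low, and EGLN3 and CA9 are among their best known targets. The promoters of the 3 leading members that RefSeq lists here (GRCh38.p14, 250 bases before to 50 bases after the RefSeq start) show where that core lies. They are CA9 at chr9:35673678-35673977 on the plus strand, ENO2 at chr12:6914330-6914629 on the plus strand and EGLN3 at chr14:33951025-33951324 on the minus strand. Each is printed 5′ to 3′ on the gene's strand, and capitals mark ACGTG or its reverse complement CACGT.
CA9: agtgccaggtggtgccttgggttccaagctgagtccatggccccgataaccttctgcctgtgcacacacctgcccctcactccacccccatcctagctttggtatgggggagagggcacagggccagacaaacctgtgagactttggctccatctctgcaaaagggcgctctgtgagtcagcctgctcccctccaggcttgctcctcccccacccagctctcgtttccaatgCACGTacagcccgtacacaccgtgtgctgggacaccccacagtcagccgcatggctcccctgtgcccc
ENO2: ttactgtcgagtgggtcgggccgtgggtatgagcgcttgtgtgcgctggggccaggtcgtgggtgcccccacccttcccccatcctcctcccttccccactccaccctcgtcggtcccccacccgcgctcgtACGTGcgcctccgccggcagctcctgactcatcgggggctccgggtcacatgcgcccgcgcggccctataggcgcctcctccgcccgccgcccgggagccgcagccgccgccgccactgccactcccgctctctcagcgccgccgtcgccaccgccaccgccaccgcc
EGLN3: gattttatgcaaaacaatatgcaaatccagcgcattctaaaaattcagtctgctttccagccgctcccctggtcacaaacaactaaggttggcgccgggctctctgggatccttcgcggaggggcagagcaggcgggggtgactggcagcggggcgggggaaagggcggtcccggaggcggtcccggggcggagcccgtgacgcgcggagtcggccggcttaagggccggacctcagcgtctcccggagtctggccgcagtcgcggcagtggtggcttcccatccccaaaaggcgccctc

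CA9 and ENO2 each hold 1 match and EGLN3 holds none in this window. Of the 30 genes of the list, 27 matched a RefSeq promoter, and 11 of those (40.7%) held ACGTG on either strand, beside 5900 of all 27305 promoters in the table (21.6%). Of the 16911 genes tested, 10683 matched a promoter and 2791 of those (26.1%) held it. That is the closer background for a list of tested genes, though it leaves out the tested genes with no match. A match is a description of the sequence and shows neither binding nor use.

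Of the 30 glycolysis and hypoxia genes tested, 26 were higher and 2 lower, with a median of 0.74. ENO2, the enolase isoform of neurons, was at 43.5, 49.1 and 35.9 CPM in JNKKO and at 1.69, 2.25 and 2.93 in WT, a difference of 4.22 ± 0.24. SLC2A3 (GLUT3), a glucose transporter, was at 13.7 ± 1.85 CPM in JNKKO and 0.944 ± 0.577 in WT, and EGLN3, an oxygen sensor that marks hypoxia-inducible factors for destruction, at 70.0, 76.1 and 65.1 CPM in JNKKO and at 7.77, 12.1 and 13.6 in WT. None of these groups overlapped. The 22 other genes that rose did so by 0.09 to 1.24, and HK2 and PFKM fell by 0.20 and 0.33. The same list was higher with dimerizer alone in 27 genes and lower in none, with a median of 0.44, and in control in 17 and lower in 5, with a median of 0.17. The increase over the control difference passed its own test in 22 genes and the increase over the dimerizer difference in 12, against 6 that moved the other way.

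Genes of the unfolded protein and ATF4 responses were mostly higher as well. Of 28 unfolded protein and ATF4 response genes tested, 18 were higher and 3 lower, with a median of 0.28. With dimerizer alone 21 were higher and 0 lower, with a median of 0.42. In control 10 were higher and 6 lower, with a median of 0.05. The difference moved towards JNKKO in 5 and towards WT in 8 against dimerizer, and in 18 and 2 against control. PHGDH, the first enzyme of serine synthesis, was at 36.2, 33.0 and 42.9 CPM in JNKKO and at 3.23, 3.05 and 3.58 in WT, a difference of 3.50 ± 0.22. CHAC1, which degrades glutathione, rose by 2.92, VLDLR by 2.68 and the pseudokinase TRIB3 by 2.09. Without WT replicate 2 the number of falls was 1. Of 29 cholesterol and fatty acid synthesis genes, 5 were higher and 10 lower, with LSS (-0.52) and FASN (-0.40) among the falls and INSIG1 at 0.43 among the rises, and without WT replicate 2 the number of falls was 5.

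All 13 protein-coding mitochondrially encoded genes tested were lower in JNKKO, with a median of -0.73. MT-ND4, a subunit of respiratory complex I, was at 5820, 5985 and 5763 CPM in JNKKO and at 12665, 11803 and 11114 in WT, and MT-ND4L, MT-ATP8 and MT-ND5 fell by 1.01, 0.85 and 0.84. Nuclear genes of the respiratory chain split, with 7 higher and 11 lower of 30 and a median of -0.01. PPARGC1A (PGC-1α), a coactivator of mitochondrial biogenesis, fell to 8.72 ± 1.63 CPM in JNKKO, against 22.6 ± 0.952 in WT, and SDHA, UQCRC1 and SDHD fell by 0.38, 0.28 and 0.27. With dimerizer alone, 9 of the 13 mitochondrially encoded genes were higher in JNKKO and none lower, with a median of 0.19, and the difference between these genotype changes passed in 13 of 13. In control, all 13 were lower in JNKKO, with a median of -0.53. The difference against control passed in 7, all towards WT. The share of these transcripts was lower in every JNKKO library with TGF-β1 than in any other library of the series, and its part in the other results was measured by leaving them out. The counts of genes past the threshold were then 4747 higher and 4145 lower.

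**Figure D4:**
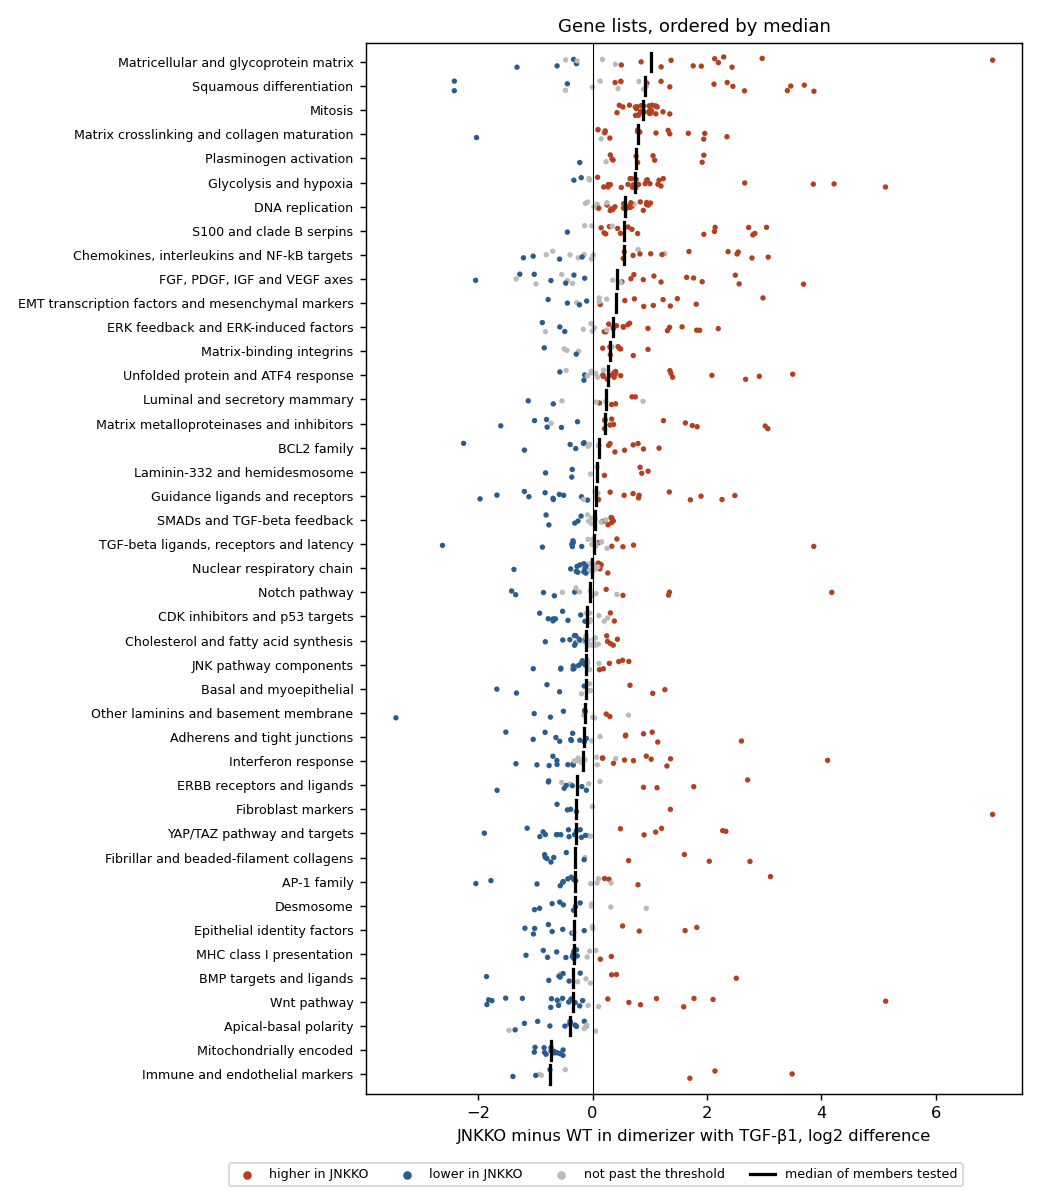
Log2 difference of JNKKO minus WT in dimerizer with TGF-β1 for each tested member of the 43 gene lists, ordered by the list median (black bar), with members higher in JNKKO in red, lower in blue and not past the threshold in grey. Mitosis lies wholly to the right of 0 and the mitochondrially encoded list wholly to the left, and most other lists hold members on both sides.

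Keratinocyte differentiation genes split. Of 24 squamous differentiation genes tested, 13 were higher and 3 lower, with a median of 0.92, mostly from low levels. SBSN (suprabasin) was at 6.34, 5.60 and 5.18 CPM in JNKKO and at 0.514, 0.564 and 0.463 in WT, and SPRR1B, a cornified envelope protein, rose by 2.36. KRT10, the keratin of suprabasal epidermis, went the other way, at 296 ± 39.9 CPM in JNKKO and 1581 ± 446 in WT, and FLG (filaggrin) fell by 2.42. Of 20 S100 and clade B serpin genes, 16 were higher and 1 lower, with a median of 0.56. S100A9 was at 83.6 ± 11.2 CPM in JNKKO and 12.6 ± 1.71 in WT and its partner S100A8 at 47.7 ± 5.61 and 10.9 ± 0.570, and S100A10 and S100A16 rose by 0.79 and 0.69. Among 12 basal and myoepithelial genes, 3 were higher and 5 lower. KRT17 fell to 1197, 1253 and 1285 CPM in JNKKO, against 4532, 3645 and 3735 in WT, and TP63, the basal cell transcription factor, fell by 0.80, while KRT14 rose by 1.27 and TPM2 by 1.05. Of 11 luminal and secretory genes, 5 were higher, among them MUC1 (0.75) and KRT7 (0.69), and 2 were lower, STAT5A (-1.12) and GATA3 (-0.69).

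Neutrophil-attracting chemokines and interleukin 1β were higher in JNKKO while antigen presentation genes were lower. Of 25 chemokine, interleukin and NF-κB target genes tested, 12 were higher and 4 lower, with a median of 0.55. The summed level of the list was nevertheless lower in JNKKO, at 1024 to 1149 CPM, against 1450 to 1732 CPM in WT. CXCL8 (interleukin 8) was at 23.9 ± 5.26 CPM in JNKKO and 2.83 ± 1.39 in WT, CXCL1 rose by 2.55 and CXCL3 by 2.79, and IL1B was at 15.1 ± 1.05 CPM in JNKKO and 2.62 ± 0.330 in WT. The 4 falls were CXCL16, SOD2, IL18 and NFKBIA. Of 17 MHC class I presentation genes, 2 were higher and 12 lower, with a median of -0.33. TAP1, a peptide transporter, fell to 28.1 ± 2.17 CPM in JNKKO, against 50.9 ± 4.82 in WT, and ERAP1 (-0.79), NLRC5 (-0.63) and PSMB8 (-0.47) also fell. Of 28 interferon response genes, 10 were higher and 9 lower, and the order of these counts changed under 11 of 14 alternatives. IFITM2 rose by 0.72, and IFIT3, IFIH1 and IRF1 fell by 0.76, 0.69 and 0.62.

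Of 18 BCL2 family genes tested, 8 were higher and 6 lower. HRK (harakiri), a pro-apoptotic BH3 protein, fell to 2.38, 2.55 and 2.30 CPM in JNKKO, against 13.3, 10.3 and 10.9 in WT, and BCL2L11 (BIM), which is known for driving the clearing of cells from the acinar lumen, fell to 17.1, 18.3 and 17.8 CPM in JNKKO, against 46.5, 37.4 and 37.6 in WT. BNIP3, a mitophagy receptor that the hypoxia list also holds, rose by 1.16 and PMAIP1 (NOXA) by 0.89. In HRK and BIM the libraries of the groups did not overlap, which was so in 59.4% of all genes tested.

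Notch, guidance and growth factor genes moved both ways, and Wnt pathway genes were more often lower than higher. Of 17 Notch pathway genes, 5 were higher and 5 lower. The receptor NOTCH1 fell to 122, 118 and 117 CPM in JNKKO, against 367, 280 and 305 in WT, HES2 fell by 1.34, and the target HEY1 and the receptor NOTCH3 rose by 1.35 and 1.33. Of 26 Wnt pathway genes, 8 were higher and 15 lower. WNT5A, a ligand of the non-canonical branch, rose to 113 ± 5.44 CPM in JNKKO, against 33.1 ± 7.30 in WT, and its receptor ROR1 fell to 6.32 ± 1.42, against 22.2 ± 3.39. The secreted inhibitor DKK1 fell by 1.23 and WNT7A rose by 0.84. Guidance ligands and receptors gave 11 higher and 11 lower of 27, with SEMA3B (2.26) and NRP1 (1.34) among the rises and EPHA4 (-1.97) and UNC5B (-1.19) among the falls. Of 26 genes of the FGF, PDGF, IGF and VEGF axes, 12 were higher and 7 lower. The imprinted non-coding RNA H19 rose by 3.69, IGFBP6, which binds IGF2, by 2.56 and PDGFC by 1.65, and FGFR2 fell by 1.27.

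Part of the genotype difference was present without TGF-β1. Without TGF-β1 the groups share no library with the 6 of this comparison, and JNKKO differed from WT in 6775 genes with dimerizer (3654 higher and 3121 lower, against 1773 and 5425 on log2(TPM + 1)) and in 8335 in control. At least 2-fold, 910 differed with dimerizer (5.38%), 542 higher (3.21%) and 368 lower (2.18%), and 1292 in control (7.64%), 821 higher (4.85%) and 471 lower (2.79%). Of the 923 genes at least 2-fold higher with TGF-β1, 325 were also at least 2-fold higher with dimerizer, 35.2% of that list and 60.0% of the 542 found with dimerizer. In control 305 of them were, 33.0% of the list and 37.1% of the 821 found in control. Of the 685 at least 2-fold lower, 157 were also lower with dimerizer (22.9% of the list and 42.7% of 368) and 158 in control (23.1% of the list and 33.5% of 471). Across the 16911 genes, which are not independent of each other, the log2 difference with TGF-β1 correlated with that in dimerizer at Pearson's r of 0.503 and with that in control at 0.410.

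**Figure D5:**
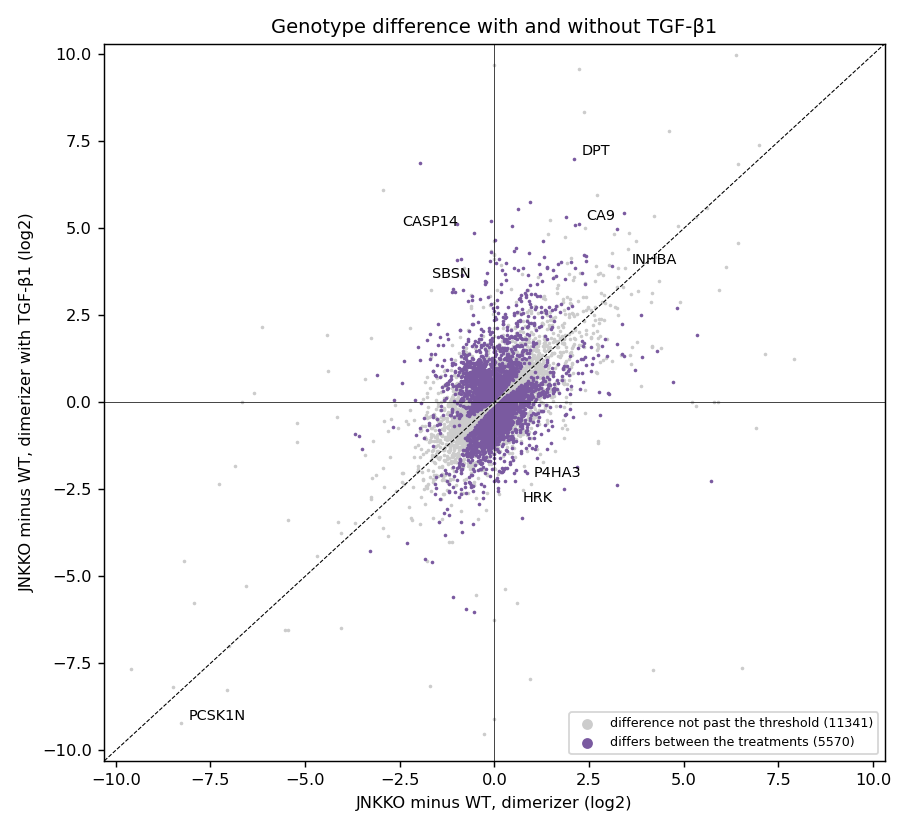
Log2 difference of JNKKO minus WT in dimerizer with TGF-β1 (vertical) against that in dimerizer (horizontal) for the 16911 genes tested, with the dashed line where both are equal. Purple marks the 5570 genes whose 2 differences were not equal by the test of the difference, such as CASP14 and DPT above the line and P4HA3 and HRK below it.

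The difference itself changed with TGF-β1 in 5570 genes against dimerizer (32.9%), 2391 towards JNKKO and 3179 towards WT, a split that on log2(TPM + 1) was 3332 and 1958. Against control it changed in 6072 genes (35.9%), 2864 towards JNKKO and 3208 towards WT, against 2282 and 3631 on log2(TPM + 1). At least 2-fold, it moved towards JNKKO in 574 genes (3.39%) and towards WT in 366 (2.16%) against dimerizer, together 5.56%, and in 564 (3.34%) and 822 (4.86%) against control, together 8.2%. In the laminin-332 and hemidesmosome list, 8 of 9 genes moved towards WT against dimerizer. INHBA, at 3.87 with TGF-β1 and 3.44 with dimerizer, showed no change past the threshold (adjusted p by edgeR with Benjamini-Hochberg adjustment = 0.23). ZEB1 differed by 1.48 with TGF-β1, by 0.23 with dimerizer and by 0.27 in control, SPARC by 2.44, 0.22 and 2.44, and WNT5A by 1.78, -0.52 and 0.64. The EMT and mesenchymal list as a whole did not follow ZEB1. With dimerizer alone 10 of its 18 genes were higher and 2 lower, with a median of 0.39. In control 5 were higher and 8 lower, with a median of -0.06. Against dimerizer, 3 of them moved towards JNKKO and 4 towards WT, and against control 9 and 2. CDH1 was lower in JNKKO with TGF-β1 (-1.04) and with dimerizer (-0.38) and higher in control (0.46), and 13 of 16 polarity genes and 9 of 12 desmosome genes differed from control by the test of the difference, all towards WT.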

How the data were processed

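RNA-seq libraries of MCF-10A.B2 acini were grouped by title. Per the labels' protocols, libraries were made from oligo(dT)-selected RNA after removal of ribosomal RNA and were sequenced on a NovaSeq6000. The submitters' processing notes name cutadapt, RSEM and the hg38 build. Versions, annotation and strand use are not given by the sources at hand, and overlapping, antisense and near-identical genes are therefore uncertain. The authors deposited RSEM expected counts and TPM for 42141 genes, per the file headers. Positions come from GENCODE 29, which matched 42125 genes, and 127 altered gene names were restored.

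Expected counts were rounded and tested with the quasi-likelihood test of edgeR 4.0.16 in R 4.3.3, with TMM scaling, the default filter (16911 genes), all 18 libraries in 1 model and Benjamini-Hochberg adjustment over all genes at 0.05. On simulated data, 177 of 200 genes changed 2-fold were recovered, with 4 false calls. The simulation gave every gene the same fixed spread and, apart from those 200, equal means in all groups. It therefore does not measure the error rate in the real libraries. Alternatives used DESeq2 1.42.0 and limma 3.58.1. CPM used library totals, 28072317 to 32774819 counts in the 6 libraries, after TMM scaling, and intervals cover counting error only. Replicate numbers were not used to pair libraries. The members, lists and tests were chosen with earlier results of these data known. Named genes were the 12 largest rises and falls that reached 5 CPM in the higher group without overlap, up to 4 called members per list at that level with the largest differences, 18 fixed genes, and the 6 largest differences each way between treatments; other list members are named to complete a count. A few genes that this rule names are not reported here.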

Additional observations from a re-analysis of the deposited data

Results flagged for a closer look

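The genotype difference changed between treatments in many genes, by a test of the difference between the changes. It passed in 5570 genes between dimerizer with TGF-β1 and dimerizer, and in 6072 between dimerizer with TGF-β1 and control.

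Against dimerizer, CASP14 moved towards JNKKO by 5.39, A2ML1 (a protease inhibitor of keratinocytes) by 4.99, ALDH3B2 by 4.94, DPT by 4.89, CAMK2B by 4.43 and SBSN by 3.69. ALDH3B2 rested on 59 counts in JNKKO and 1 in WT with TGF-β1, a 65.5-fold ratio (95% interval of the counting error, 11.3 to 2630), and it was at 8.40 CPM in JNKKO and 5.48 in WT with dimerizer, and on log2(TPM + 1) its call against dimerizer ended, at 0.14. The DPT call ended without WT dimerizer replicate 1, with a value of 3.63. The most negative were KCNJ6 (a potassium channel, -3.39), P4HA3 (-2.89), ALDH1A2 (a retinoic acid synthesis enzyme, -2.81) and HRK (-2.80). KCNJ6 was at 0 in all WT dimerizer libraries, so its fitted value depends on the prior count.

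Against control, CCBE1 moved by 5.57, PADI4 by 4.93, SAMD11 by 4.34, KCNQ3 by 4.19, AOC1 by 4.15 and ALDH3B2 by 4.01. CCBE1 averaged 15.5 CPM in JNKKO and 1.46 in WT with TGF-β1, and 0.856 in JNKKO and 3.88 in WT in control. The most negative were ACSS1 (-4.44), GPNMB (-4.20), SFTPD (-3.76), STK32A (-3.60), ALDH1L1 (-3.55) and MRAP2 (-3.52). GPNMB averaged 26.9 CPM in JNKKO and 99.8 in WT with TGF-β1, where WT replicate 1 held 168 CPM and the other WT libraries 70.0 and 61.1, and 335 in JNKKO and 67.7 in WT in control.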

How the results depend on the processing

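Of 22 counts over whole comparisons, 12 stayed within 1.5 times their value under every alternative run, and of 86 list counts, 70 did. On log2(TPM + 1), the genes at least 2-fold different numbered 582 (337 higher and 245 lower) with TGF-β1, 225 with dimerizer and 354 in control, and the differences between treatments of that size numbered 401 against dimerizer and 669 against control. The differences towards WT against dimerizer numbered 1958 on log2(TPM + 1) and 1872 on log2(TPM + 0.1). JNKKO against WT in dimerizer gave 1773 higher and 5425 lower on log2(TPM + 1), and 1803 and 5416 on log2(TPM + 0.1), against 3654 and 3121 on counts, and log2(TPM + 0.1) moved the median of all genes there to -0.128. The cause was not tested. Leaving out 1 library each gave 4068 to 4506 higher and 3896 to 4097 lower genes with TGF-β1. The fit with the replicate number as a block gave 8949 genes. Deviations of same-numbered libraries from their group means correlated at -0.0429, -0.0473 and -0.0483, and those of different-numbered libraries at 0.0015 to 0.0441. No pairing by number was seen. Deviations within a group are tied to each other, so these values cannot exclude it.

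PMEPA1 turned to -0.1001 on log2(TPM + 1) and -0.1003 on log2(TPM + 0.1). NGFR, not past the threshold, ranged from -0.1438 to 0.0396 with 1 library left out and turned positive without JNKKO replicate 2 (0.0236), WT replicate 2 (0.0007) or WT replicate 3 (0.0396). The KCNJ6 difference against dimerizer turned to 0.4291 and 0.8895 on the TPM scales and lost its call under most alternatives, and on log2(TPM + 1) ALDH3B2 turned to -0.5308 against control and lost its call against dimerizer, at 0.1404. The AOC1 call against control ended when any control library was left out. Precision is limited by 3 libraries a group.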
